A study of Mus musculus with 5 samples.

Results

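The genes described here encode microtubule motors and the parts that attach motors to cargo: kinesin heavy chains (Kif), kinesin light chains (Klc), cytoplasmic dynein chains (Dync) and dynactin subunits (Dctn). Members were all rows of the deposited count table with a symbol that begins with Kif, Klc, Dync1, Dync2 or Dctn followed by the family's number or chain, and with a coding sequence (CDS) under 8000 nt. This took 39 of 10329 genes. The CDS limit left out 2 dynein heavy chains, Dync1h1 and Dync2h1, which the pattern would otherwise have taken among 41 symbols.

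Kinesins and cytoplasmic dynein use ATP to walk along microtubules, most kinesins towards the plus end and dynein towards the minus end. In axons the plus ends point away from the cell body, so kinesins carry vesicles, mitochondria and RNA granules outward, while dynein with its cofactor dynactin brings endosomes and other cargo back. Dendrites have microtubules of both orientations. A motor is assembled from several gene products, so the supply of each chain is set by a separate mRNA.

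Footprints, the mRNA fragments that ribosomes protect from nuclease, were sequenced from hippocampal-cortical slices. The mice were wild-type C57BL/6N males aged 28 to 35 days. Slices of 400 µm recovered for 3 to 4 h and were then kept for 0, 5, 10, 30 or 60 min with homoharringtonine (HHT) at 20 µM, in a protocol with 0.05% DMSO as vehicle. HHT stops ribosomes that have just begun translation and lets those already elongating run to the end of the CDS, so footprints drain from the start of the mRNA and a long CDS takes longer to clear. Each time point was 1 library from a pool of 10 slices from 2 to 3 mice. No library of slices held in vehicle alone for 5 to 60 min was analysed here, so time with HHT and time after slicing cannot be told apart.

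Total counts fell from 7155147 at 0 min to 1346175 at 60 min, and counts summed over the members were 66779, 30201, 23614, 13868 and 12356 in time order. With 1 library per time there was no replicate, and each interval below is an exact 95% conditional binomial or Poisson interval that covers counting error only. Of the 39 members, 24 had at least 100 counts at 0 min and 32 had a mean of at least 10 counts over the 5 libraries. All 8 neuronal markers of a fixed list were in the second deposited table, which gives TPM rounded to whole numbers. Their sum ranged from 6666 to 8242 TPM over the 5 libraries, with Snap25 listed at 0 in each. Markers of astrocytes summed to between 3140 and 4514 TPM and those of oligodendrocytes to between 14315 and 33890 TPM, so the footprints came from a mixture of brain cells. Microglial markers (8 of 8 in that table) summed to 706 TPM at 0 min and to between 145 and 271 TPM afterwards. The part of cell mixture in the members' values was not tested. In such bulk tissue, fewer cells of a type and less RNA or fewer ribosomes per cell cannot be told apart.

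Before HHT, the members' footprint signal covered a 1666-fold range. The unit is the deposited rpk, the count per kilobase of CDS less 600 nt divided by a factor for each library, and it was compared between genes only because it is per length. Dctn2, the dynamitin subunit that links the dynactin shoulder to its filament, was highest at 5576 rpk. The next were Klc1, a light chain that binds cargo for conventional kinesin, at 3649 rpk and Kif1a, a kinesin that carries synaptic vesicle precursors, at 3129 rpk. Kif27, a kinesin of motile cilia, was lowest at 3.35 rpk from 12 counts. The median over all 10329 genes was 221 rpk.

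The members split into an abundant set and a scarce set in the untreated slices. The 20 members above the median of all genes lay at or above 327 rpk, and the other 19 at or below 90.5 rpk. Of the 39, 10 were in the upper 10% of all genes and 14 in the lower 10%. The 12 highest held 78.6% of the members' counts. Neighbours in the order often did not differ beyond counting error: the intervals of Kif5a and Kif5c overlapped, as did those of Dync1li2, Kif3a and Dctn4 in turn, those of Kif3c, Kif5b and Kif2a, and those of Kif3b and Dync2li1. Below Kif21b every interval overlapped that of the next gene.

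**Figure D1:**
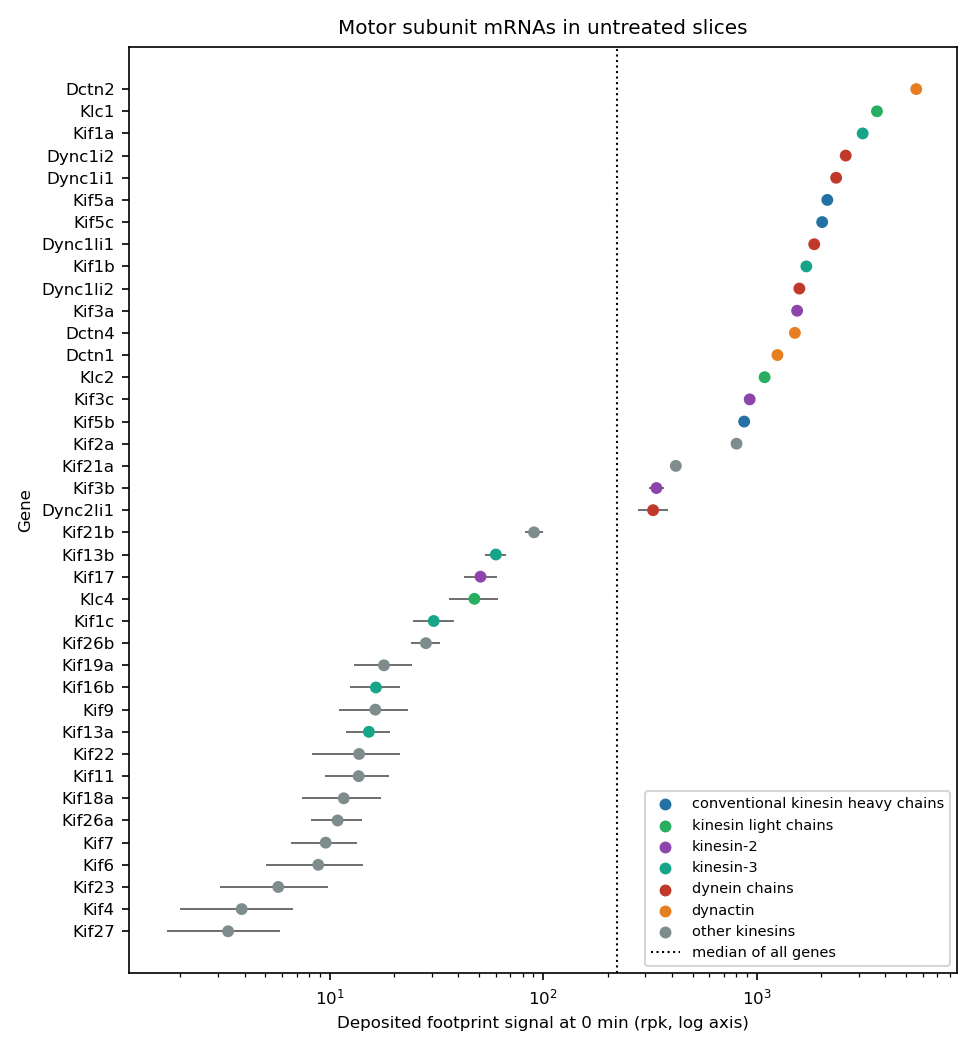
Deposited footprint signal at 0 min (rpk, log axis) of the 39 members in order, with points coloured by role and bars for the exact 95% Poisson interval of the count. The dotted line is the median of all genes at 221 rpk. Dctn2 at 5576 rpk is highest and Kif27 at 3.35 rpk lowest, and no member lies between 90.5 and 327 rpk.

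The signal of nearly every member was lower after HHT, and members with a short CDS lost it sooner. The members' median ratio to 0 min was 0.437, 0.302, 0.216 and 0.171 in time order, against 0.333, 0.268, 0.223 and 0.181 over all genes. At 60 min, 38 of 39 members were under 0.5, beside 97.3% of all genes. At 5 min 24 of 39 were, beside 78.1% of all genes, at 10 min 27 of 39 (84.3% of all genes), and at 30 min 38 of 39 (95.4%). The members' CDS had a median of 2871 nt, against 1626 nt for the table, with a range from 1056 nt (Dync2li1) to 6339 nt (Kif26b).

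Among the 24 members with at least 100 counts, the longer the CDS, the more signal was left at the early times. The 4 members under 1500 nt, all dynein or dynactin, had a median ratio of 0.180 at 5 min, and the 6 members of at least 4500 nt, all kinesins, had 0.593. At 10 min the shortest stood at 0.160 and the longest at 0.643. By 30 min the longest had come down to 0.246 and by 60 min to 0.199, while the shortest were at 0.167 and 0.140. Genes of like length with at least 100 counts had medians of 0.226, 0.209, 0.208 and 0.173 under 1500 nt, and 0.630, 0.671, 0.255 and 0.201 from 4500 to 8000 nt. The medians of the long kinesins were slightly under those of other long mRNAs at each time, and those of the short members lay further under those of other short mRNAs.

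As a description over these 24 members, which share the same 5 libraries, Spearman's rho of the ratio against length was 0.885, 0.903, 0.428 and 0.450 in time order. Pearson's r was 0.786, 0.915, 0.354 and 0.366. Without Kif26b and Kif13b, whose CDS are farthest from the median, rho was 0.916, 0.888, 0.615 and 0.619. Without the shortest and the longest member, Dync2li1 and Kif26b, it was 0.906, 0.915, 0.403 and 0.447. The late values thus depend on which members are left out. Over the genes of the table with at least 100 counts, rho was 0.802, 0.587, 0.171 and 0.114.

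**Figure D2:**
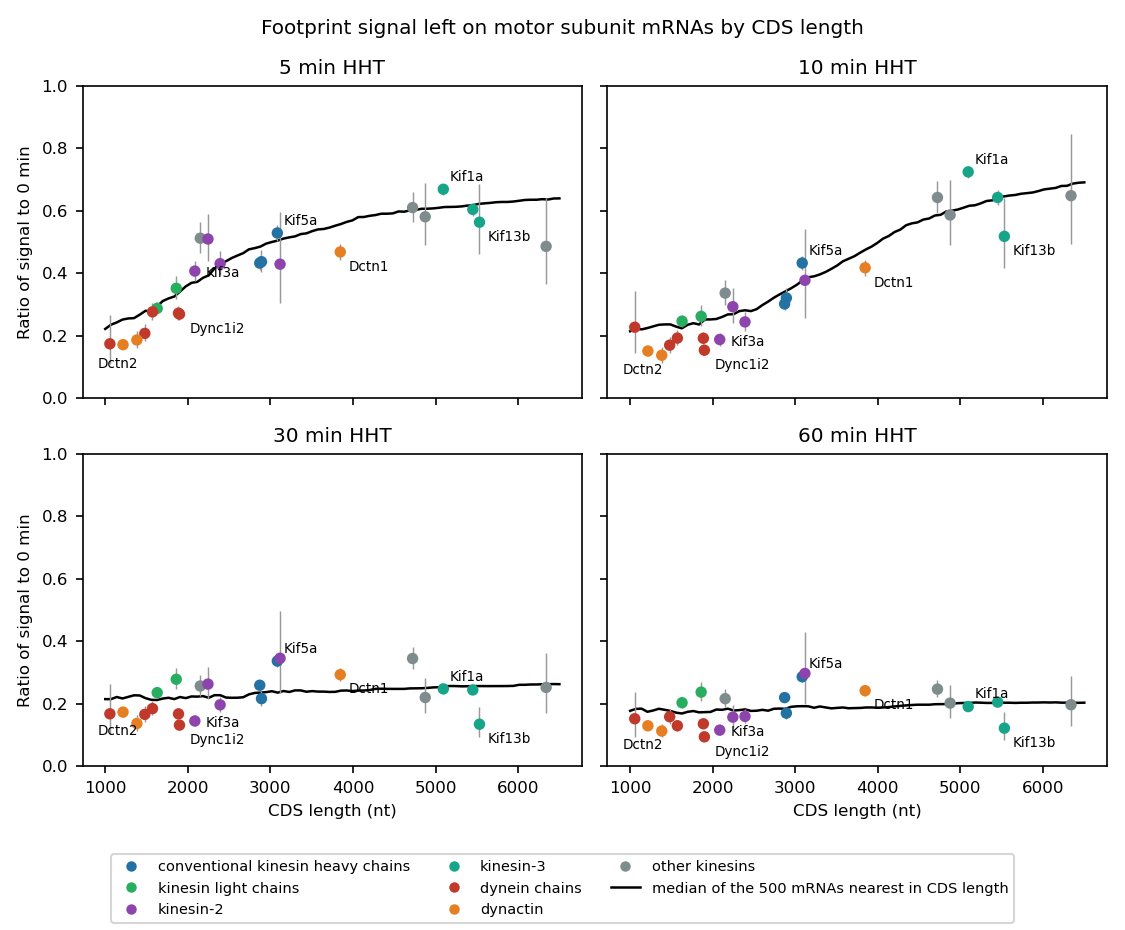
Ratio of the deposited signal to 0 min against CDS length (nt) for the 24 members with at least 100 counts at 0 min, 1 panel per time. Bars are exact 95% counting intervals and the black line is the median of the 500 mRNAs nearest in CDS length. Kif1a is at 0.669 and 0.725 in the 5 and 10 min panels, Dctn2 at 0.171 and 0.151, and in the 60 min panel all 24 lie under 0.3.

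Kinesin-1, the conventional kinesin, is a motor of paired heavy chains (Kif5a, Kif5b or Kif5c) with paired light chains (Klc). Kif5a and Kif5c are mainly neuronal and Kif5b is found in most cells. Kif5a (chr10:127225695-127266348, GRCm38) had 2137, 1130, 925, 719 and 612 rpk at 0, 5, 10, 30 and 60 min. Kif5c (chr2:49619286-49774778) had 2022, 874, 610, 524 and 444 rpk. Kif5b had 872, 381, 280, 189 and 148 rpk. All 3 fell at every step. Their CDS differ by little, from 2871 to 3084 nt, but Kif5a was apart from 5 min on, with a ratio of 0.529 (0.505 to 0.554) against 0.433 (0.410 to 0.456) for Kif5c and 0.437 (0.403 to 0.474) for Kif5b. At 60 min Kif5a kept a ratio of 0.286 (0.270 to 0.303), Kif5c 0.220 (0.205 to 0.235) and Kif5b 0.170 (0.151 to 0.191), with no overlap among the counting intervals. Kif5a thus went from 42.5% to 50.8% of the summed Kif5 signal, and Kif5b from 17.3% to 12.3%. In the TPM table, scaled to mitochondrially encoded genes, Kif5b was lower, at 0.315 at 5 min and 0.142 at 60 min. Kif5c was at 0.423 and 0.223 there, and Kif5a at 0.517 and 0.286. The order at 60 min was the same in both tables, but the likeness of Kif5b and Kif5c at 5 min depends on the table.

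The light chains tether kinesin-1 to cargo adaptors and hold it inactive when no cargo is bound. Klc1 (chr12:111758435-111807844) had 3649, 1049, 899, 859 and 741 rpk in time order. Klc2 (chr19:5107746-5118298) had 1087, 382, 285, 303 and 258 rpk. Both lost most of their signal by 5 min and then little. At 60 min the ratio was 0.203 (0.187 to 0.220) for Klc1 and 0.237 (0.209 to 0.268) for Klc2, and these intervals overlap. Klc4, with only 60 counts at 0 min, made up 0.995% of the light chain signal there.

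Kinesin-3 motors move synaptic vesicle precursors, dense-core vesicles and mitochondria over long distances. Kif1a (chr1:93015455-93102039; CDS 5094 nt) had 3129, 2094, 2268, 774 and 596 rpk in time order. Kif1b (chr4:149176319-149307773; CDS 5451 nt) had 1705, 1031, 1096, 416 and 350 rpk. On the deposited scale both held a plateau between 5 and 10 min and dropped between 10 and 30 min. From 5 to 10 min the signal of Kif1a went up 1.08-fold (1.05 to 1.12) and that of Kif1b 1.06-fold (1.02 to 1.11). In the TPM table, scaled to mitochondrially encoded genes, the same step was 1.11-fold for Kif1a and 1.58-fold for Kif1b, so the size of the Kif1b step depends on the table. From 10 to 30 min they went to 0.341 and 0.380 of the 10 min level.

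Kif13b (chr14:64652492-64809618; CDS 5532 nt), a kinesin-3 that carries phosphoinositide cargo, was much scarcer, with 296, 161, 127, 35 and 35 counts. Its signal was 60.0, 33.8, 31.1, 8.05 and 7.29 rpk. Its 60 min ratio of 0.121 (0.083 to 0.173) was the lowest point value of the long kinesins, under the interval of Kif1a at 0.191 (0.183 to 0.199). It was not resolved from Kif21b at 0.202 (0.156 to 0.259) or from Kif26b, whose intervals overlap its own. Kif26b (chr1:178529125-178932857), a kinesin-11 family protein with no known motor activity and the longest CDS, had 28.2, 13.7, 18.3, 7.12 and 5.55 rpk from 162 counts at 0 min and 31 at 60 min. Its 60 min ratio of 0.197 (0.129 to 0.290) had an interval that took in that of Kif1a.

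The plateau was shared by the 6 long kinesins, which include the kinesin-4 motors Kif21a and Kif21b. The signal at 10 min over that at 5 min was above 1 in 5 of these 6, with an interval wholly above 1 in 2 of them, and was 0.919 in Kif13b. Among the 18 shorter members it was under 1 in 17. In all, 18 of the 24 members were lower at 10 than at 5 min, beside 74.1% of genes with at least 100 counts. The next step ran the other way: from 10 to 30 min the 6 long kinesins kept 0.259 to 0.536 of their signal and the 18 shorter members 0.674 to 1.15. Over that step 22 of the 24 were lower, beside 72.6% of genes. All 24 members were lower at 60 than at 30 min, with ratios of 0.597 to 0.955, beside 86.1% of genes.

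**Figure D3:**
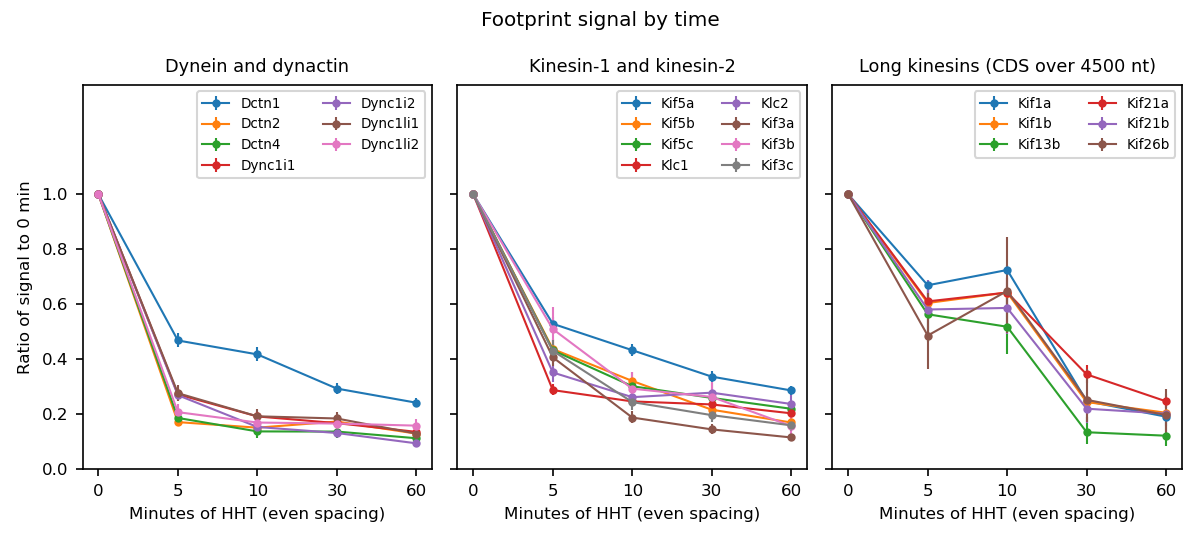
Ratio of the deposited signal to 0 min for 7 dynein and dynactin members, 8 kinesin-1 and kinesin-2 members and the 6 kinesins with a CDS over 4500 nt. The time points are evenly spaced on the axis, and bars are exact 95% counting intervals. Dynein and dynactin chains other than Dctn1 lie at or below 0.276 at 5 min, whereas the long kinesins lie between 0.486 and 0.669 and fall between 10 and 30 min.

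Kinesin-2 motors drive intraflagellar transport and carry cargo such as NMDA receptor subunits in dendrites. The heterotrimeric form pairs Kif3a with Kif3b or Kif3c. Kif3a (chr11:53565701-53604248) had 1543, 628, 290, 223 and 178 rpk in time order. Its ratio at 60 min was 0.115 (0.101 to 0.131), lower than those of Kif3b at 0.157 (0.123 to 0.197) and Kif3c at 0.159 (0.139 to 0.182), although the interval of Kif3b overlaps that of Kif3a. On the deposited scale Kif3a over the sum of its partners Kif3b and Kif3c was 1.22 before HHT, then 1.10, 0.891, 0.824 and 0.887. In the TPM table Kif3a had 154, 209, 102, 92 and 87 TPM and the sum 191, 420, 179, 151 and 136. Kif3a was thus under the sum in every library there, so its excess before HHT depends on the table. Kif17 (chr4:138262251-138301973), a homodimeric kinesin-2, rested on few reads, 128, 53, 40, 39 and 37 counts, and had 50.9, 21.8, 19.2, 17.6 and 15.1 rpk. Its 60 min ratio of 0.297 (0.200 to 0.431) was the highest point value of the 24.

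Kif2a (chr13:106958996-107022355), a kinesin-13, removes tubulin from microtubule ends rather than walking along them. It had 803, 412, 270, 206 and 174 rpk in time order. With a CDS of 2151 nt it kept a ratio of 0.512 (0.464 to 0.565) at 5 min, where Kif3a, with 2085 nt, kept 0.407 (0.376 to 0.440). At 60 min Kif2a was at 0.216 (0.188 to 0.247).

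Cytoplasmic dynein-1 is built on a pair of heavy chains, with intermediate chains that bind dynactin and light intermediate chains that bind cargo adaptors. All 4 of the dynein-1 chains among the members drained early and far. Dync1i1 (chr6:5725600-6028039), the mainly neuronal intermediate chain, had 2350, 639, 450, 393 and 319 rpk. Dync1i2 (chr2:71211676-71263303), the intermediate chain of most cells, had 2607, 701, 400, 342 and 244 rpk. The pair began at similar levels and had equal ratios at 5 min, 0.272 (0.251 to 0.294) and 0.269 (0.249 to 0.290). At 60 min they had parted, with 0.136 (0.122 to 0.150) for Dync1i1 and 0.094 (0.083 to 0.105) for Dync1i2, which was the lowest of the 24 members. The share of Dync1i1 in the intermediate chain signal went from 47.4% to 56.6%.

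Dync1li1 (chr9:114688831-114723788) had 1856, 513, 357, 342 and 240 rpk, and Dync1li2 (chr8:104417674-104443050) had 1581, 328, 268, 262 and 250 rpk. These light intermediate chains crossed: Dync1li1 kept more at 5 min, with a ratio of 0.276 (0.249 to 0.306) against 0.207 (0.182 to 0.236). At 60 min the point values were reversed, 0.129 (0.112 to 0.148) and 0.158 (0.136 to 0.183), with overlapping intervals. Dync2li1 (chr17:84626475-84655568), the light intermediate chain of the ciliary dynein-2 and the shortest member at 1056 nt, had 327, 56.8, 74.2, 54.7 and 49.6 rpk. Its 149 counts at 0 min and 22 at 60 min left wide intervals, 0.174 (0.109 to 0.267) at 5 min and 0.152 (0.092 to 0.238) at 60 min.

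The heavy chains, which the CDS limit leaves out of the members, drained far more slowly. Dync1h1, the dynein-1 heavy chain with a CDS of 13935 nt, had ratios of 0.724, 0.882, 0.745 and 0.495 at 5, 10, 30 and 60 min. Dync2h1, the dynein-2 heavy chain with 12921 nt, had 0.738, 0.822, 0.371 and 0.231. Both were higher at 10 than at 5 min, as 5 of the 6 long kinesins were.

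Dynactin is the cofactor that dynein needs for long runs. Dctn1 (chr6:83165909-83200118), the p150 subunit that binds both dynein and the microtubule, had 1248, 584, 521, 366 and 302 rpk. Dctn2 (chr10:127266262-127281959) had 5576, 954, 840, 965 and 720 rpk. Dctn4, a subunit at the pointed end of the dynactin filament, had 1507, 281, 207, 206 and 169 rpk. Dctn1, with a CDS of 3846 nt, was the slowest to fall, at a ratio of 0.468 (0.443 to 0.495) after 5 min, whereas Dctn2 with 1215 nt was at 0.171 (0.156 to 0.187) and Dctn4 with 1383 nt at 0.186 (0.160 to 0.216). Of the 24, Dctn2 was the 1 member whose signal stood higher at 30 than at 10 min by an interval above 1, 1.15-fold (1.01 to 1.31). The annotated spans of Dctn2 and Kif5a overlap by 87 bases at their ends. Counts are labelled as taken over the CDS without its ends, and the deposited signal uses the CDS less 600 nt. Whether the overlap bears on the Dctn2 or Kif5a values was not tested. The labels do not say whether counting used strand.

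The chains of 1 complex therefore changed their proportions while ribosomes ran off, as the values below give per length and on the deposited scale. Kinesin-1 heavy chains summed to 5031 rpk at 0 min and light chains to 4784 rpk, a ratio of 1.05. That ratio was then 1.65, 1.50, 1.21 and 1.19 in time order. Dynein-1 intermediate chains summed to 4957 rpk at 0 min, 10.8 times the heavy chain at 458 rpk, and were 4.05, 2.11, 2.16 and 2.49 times it at the later times. Dctn2 over Dctn1 was 4.47, 1.63, 1.61, 2.64 and 2.39. In each of these pairs the part with the shorter CDS lost its share first. The kinesin-1 and Dctn2 proportions came part of the way back by 60 min.

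**Figure D4:**
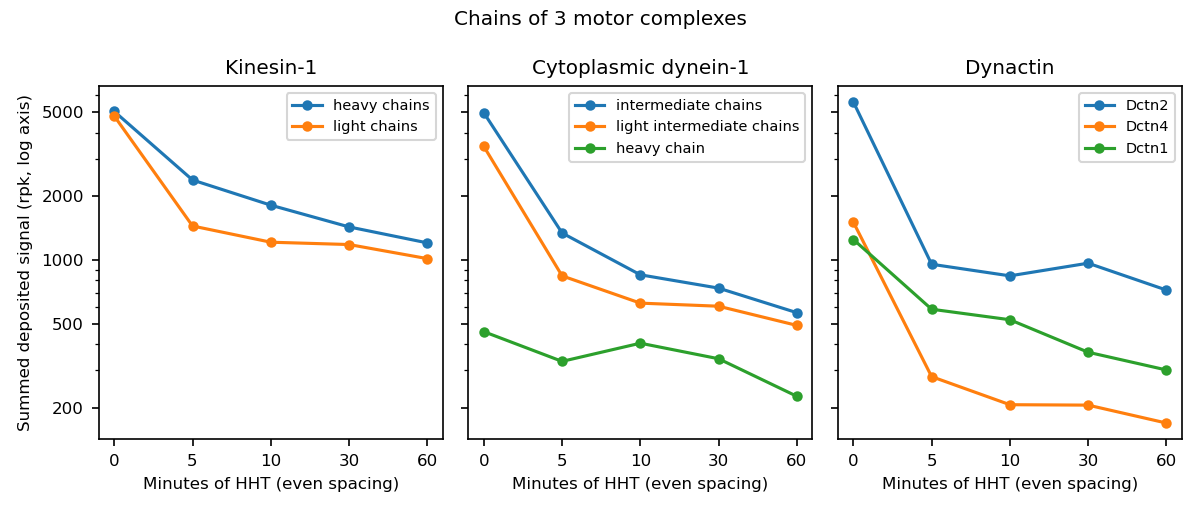
Summed deposited signal (rpk, log axis) of the chains of kinesin-1, cytoplasmic dynein-1 and dynactin at each time, with time points evenly spaced. Each point is 1 library. Intermediate chains of dynein start at 4957 rpk and reach 563 rpk, while the heavy chain goes from 458 to 227 rpk; Dctn4 starts above Dctn1 and is below it at all 4 treated times.

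To compare at like length, each ratio was set against the median of the 500 genes nearest in CDS length, as a log2 departure. These 500 genes reached from 1011 to 1101 nt for Dync2li1, 4104 to 6078 nt for Kif1a and 4614 to 8076 nt for Kif26b. Length was therefore matched less closely for the long kinesins than for the short members. Dynein and dynactin members, which do not include the heavy chains, lay below mRNAs of like length and the kinesins did not as a group. Of the 8 dynein and dynactin members, 8, 7, 7 and 7 were below at 5, 10, 30 and 60 min, with median departures of -0.38, -0.44, -0.38 and -0.40. Of the 16 kinesins and light chains, 8, 9, 8 and 7 were below, with medians of -0.01, -0.00, 0.04 and 0.01. Of all 24 members, 16, 16, 15 and 14 were below, and over the 7032 genes with at least 100 counts 52.3%, 53%, 53.5% and 53.1% were. Above were 8, 8, 9 and 10 members, beside 47.7%, 47%, 46.5% and 46.9% of genes. These are counts of genes that share libraries, with no test, and the dynein and dynactin members other than Dctn1 all have a CDS of at most 1899 nt. The 2 dynein heavy chains that the CDS limit leaves out went the other way. Departures in time order were 0.13, 0.24, 1.38 and 1.21 for Dync1h1 and 0.16, 0.14, 0.37 and 0.12 for Dync2h1. How closely length was matched for these 2 was not measured.

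Among the 24 members, the largest departures were on the low side, in dynein, dynactin and the kinesins Kif13b and Kif3a. Kif3a was at 0.13 at 5 min and at -0.46, -0.64 and -0.68 at 10, 30 and 60 min. At 10 min the lowest were Dctn4 at -0.80, Dync1i2 at -0.72 and Dctn2 at -0.58, and the highest were Kif2a at 0.33, Kif1a at 0.23 and Kif5a at 0.19. At 60 min the lowest were Dync1i2 at -0.90, Kif13b at -0.74 and Dctn4 at -0.73, and the highest were Kif17 at 0.64, Kif5a at 0.57 and Klc2 at 0.47. None of the 24 was 2-fold above or below its length at any time; of all genes, 1.32%, 3.51%, 3.07% and 3.83% were 2-fold above in time order and 1.15%, 3.65%, 4.49% and 5.25% were 2-fold below. Below at all 4 treated times were 9 members (37.5% of the 24, against 31.4% of all genes): Dctn2, Dctn4, Dync1i1, Dync1i2, Dync1li1, Dync1li2, Kif13b, Kif26b and Kif5b. Above at all 4 were Kif21a, Kif2a, Kif5a and Klc2, 4 members against 27% of all genes. All 4 ratios share the single 0 min library, so a run of 4 is not 4 independent observations.

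**Figure D5:**
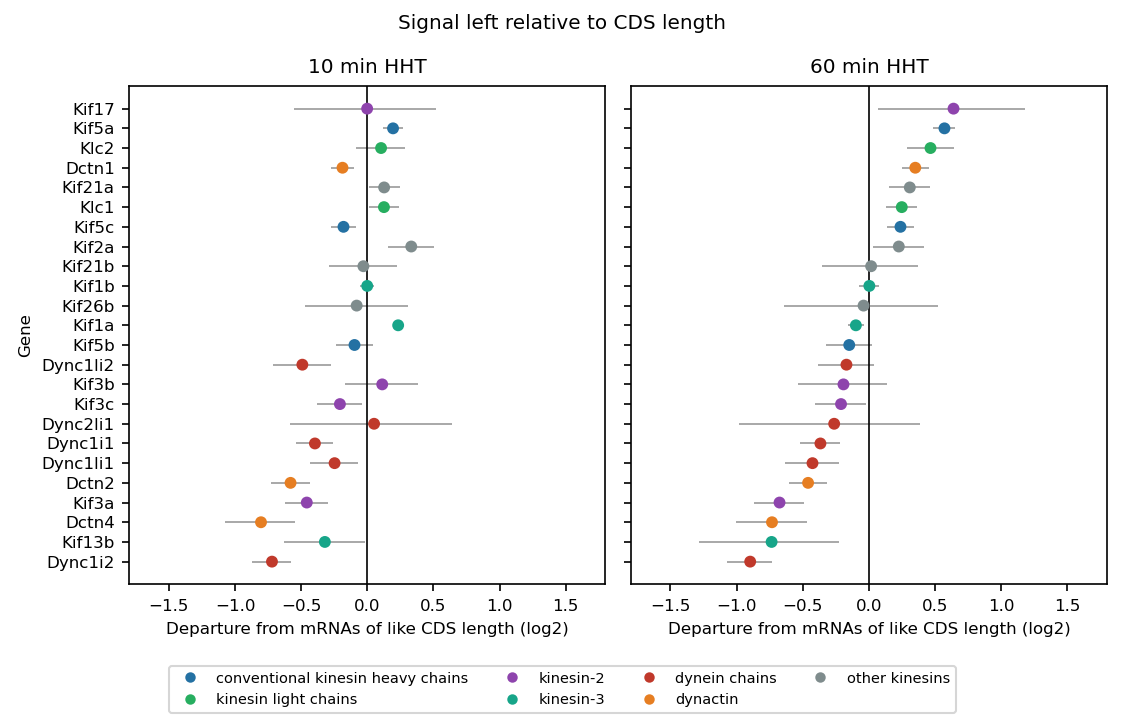
Departure of each ratio from the median of the 500 mRNAs nearest in CDS length (log2) at 10 and 60 min for the 24 members with at least 100 counts at 0 min, in order of the 60 min value. Bars carry over the 95% counting interval of the ratio. Red and orange points, dynein chains and dynactin, lie left of 0 except Dync2li1 at 10 min and Dctn1 at 60 min; Kif5a is at 0.19 and 0.57.

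The fall over time was tested as a slope on log2(minutes + 1) with edgeR's quasi-likelihood test and Benjamini-Hochberg adjustment over all genes. With libraries scaled by the deposited factors, 31 of 32 members fell, beside 94.2% of all genes tested, a share near that background. Slopes ran from -0.67 (Kif11, a mitotic kinesin) to -0.15 in Kif7, a hedgehog pathway kinesin of primary cilia that was not called (SE 0.11, adjusted p = 0.189 from edgeR). Dync1i2 had a slope of -0.57 (SE 0.073, adjusted p = 0.000169 from edgeR), Kif1a -0.42 (SE 0.095, adjusted p = 0.00111) and Kif5a -0.30 (SE 0.068, adjusted p = 0.00104). The ratio was under 1 at all 4 treated times for each of these. With plain minutes in place of log2(minutes + 1), 0 of the 32 passed in edgeR, beside 0.254% of all genes. At an unadjusted p under 0.05 there were 17 members, beside 39.3% of all genes.

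Scaled instead to the typical mRNA by TMM, 0 of 32 members rose and 0 fell, beside 0% and 0.0106% of the 9444 genes tested. In that edgeR test 1 member was higher (Kif7) and 1 lower (Dync1i2) at an unadjusted p under 0.05, beside 6.75% and 5.48% of genes. DESeq2 also called 0 members in each direction, beside 0.381% and 0.392% of genes. The median slope of all genes was 0.00 on this scale and -0.41 with the deposited factors, and that of the members was -0.01 and -0.42. A straight slope over 5 libraries does not describe a plateau followed by a drop.

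Among the 4 treated libraries alone, 2 of 30 members fell relative to the typical mRNA, beside 10.1% of genes that fell, and 0 rose, beside 5.1%. Both were kinesin-3 motors with a long CDS. Kif13b had a slope of -0.51 (SE 0.11, adjusted p = 0.0139 from edgeR) and Kif1a of -0.38 (SE 0.10, adjusted p = 0.0254 from edgeR). Kif1b (-0.30, adjusted p = 0.0522 from edgeR), Kif21b (-0.28, 0.0619) and Kif3a (-0.25, 0.0738) did not pass. The calls rested on single libraries. When the 30 min library was left out, Kif13b was called (adjusted p = 0.0238 from edgeR) and Kif1a was not (0.117), beside 3.53% of genes that fell. With the 60 min library left out neither passed (0.0564 and 0.262), beside 0.962% of genes. When the 5 min library was dropped 6 members fell, beside 12.2% of genes, and when the 10 min library was dropped 8 fell, beside 18.6%. On the TPM table limma called 0 members (adjusted p = 0.152 for Kif1a and 0.156 for Kif13b) and 0% of genes.

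The 15 members with fewer than 100 counts were kinesins and Klc4, and single genes among them could hardly be resolved. Their 0 min counts ran from 12 (Kif4 and Kif27) to 83 (Kif1c). The 5 mitotic kinesins in the table, Kif4, Kif11, Kif18a, Kif22 and Kif23, which build and move the spindle of dividing cells, had 103, 38, 21, 10 and 11 counts together. Their pooled ratio was 0.382 (0.256 to 0.560) at 5 min and 0.110 (0.053 to 0.205) at 60 min. No gene of the count table had fewer than 11 counts at 0 min, whereas the lowest count was 1 at 5 min and 0 at 60 min. Scarce genes thus met a higher floor in the library that is the denominator, which by itself tends to lower their ratios. The size of that part was not tested. The 5 markers of dividing cells summed to 9, 5, 2, 3 and 1 TPM over the same libraries, each at 3 TPM or less. Cdk1 was listed at 0 from 10 min on and Mki67 from 30 min on. Top2a was still at 1 TPM at 60 min, Ccnb1 had 3, 1, 0, 2 and 0 TPM, and Aurkb was at 0 in each library. The part of dividing cells in the mitotic kinesin values was not tested. Kif7 had 33, 16, 21, 15 and 17 counts and a ratio of 0.529 (0.277 to 0.978) at 60 min, the 1 member above 0.5 there.

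Motors work with other subunits, activators and cargo adaptors, and 43 of 59 such partners on a fixed list were in the count table. Their median ratio was 0.385, 0.348, 0.280 and 0.232 in time order, higher than the members' from 10 min on. Of 38 partners with at least 100 counts, 27 lay above mRNAs of like length at 60 min (71.1%, against 46.9% of all genes and 10 of the 24 members). Among these 38, the lowest point values at 60 min belonged to subunits. Capza1, which caps the dynactin filament, was at 0.109 (0.058 to 0.189) from only 14 counts. Kifap3, the third subunit of heterotrimeric kinesin-2, was at 0.116 (0.108 to 0.125). Actr10, a pointed end protein of dynactin, was at 0.123 (0.103 to 0.146). These intervals overlap, and another subunit, Actr1b, was at 0.195. Of the same 38, Dync1h1 was highest at 0.495, and next were the kinesin-1 scaffold proteins Mapk8ip1 at 0.477 and Mapk8ip2 at 0.335.

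In the slope tests with the deposited factors 40 of 43 partners fell (93%), beside 94.2% of genes. With TMM over 5 libraries 0 rose and 0 fell, beside 0% and 0.0106% of genes. Over the 4 treated libraries 1 partner rose, beside 5.1% of genes, and 1 fell, beside 10.1%. The 1 that rose was Mapk8ip1 (slope 0.31, adjusted p = 0.0250 from edgeR). The 1 that fell was Madd, an adaptor of Kif1a and Kif1b (slope -0.30, adjusted p = 0.0430 from edgeR). Neither call held when the 30 min library was left out (adjusted p = 0.120 and 0.214 from edgeR), nor when the 60 min one was (0.257 and 0.360). That of Mapk8ip1 was also lost when the 5 min library was dropped (0.115).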

How the data were processed

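Ribosome profiling of 5 libraries, 1 per time of HHT, was analysed. The build was mm10 and the tools were TopHat2 2.0.9, Bowtie2 2.1.0, Trimmomatic 0.32 and cutadapt 1.7.1, per the submitters' processing notes. The role of each tool, and how reads from near-identical paralogs such as Kif5a, Kif5b and Kif5c were split, is not stated there. The authors deposited expected counts per gene, which are whole numbers as listed. Their deposited signal (rpk) equals the count per kilobase of CDS less 600 nt, divided by 1 factor per library (1, 0.965, 0.828, 0.882 and 0.973 in time order) whose origin is not given. The deposited ratio columns divide it by the 0 min value. Its deposited score columns were left aside. Another deposited table holds a score for 18527 genes, TPM rounded to whole numbers.

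Slopes on log2(minutes + 1) were tested with edgeR 4.0.16 in R 4.3.3 on genes with a mean of at least 10 counts, at a Benjamini-Hochberg adjusted p under 0.05, with TMM factors, the deposited factors, and TMM over the 4 treated libraries. Slopes are in log2 units per doubling of (minutes + 1). DESeq2 1.42.0 and limma 3.58.1 gave alternatives, as did RLE factors, no count filter, another time scale, mitochondrial scaling, removal of the length trend and leaving out each library. Departures used log2 with a pseudocount of 0.5. Scripts were tested on simulated data. Where nothing says that libraries are separate preparations, p-values measure only the spread of these libraries about the fitted slope. That spread takes in any departure of the time course from a straight line.

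Members, role groups, partners and markers were chosen with earlier results of these data known. Values in every library are given for the conventional kinesin, Kif1a, Kif1b, Kif3a, Klc1, Klc2, dynein-1 and dynactin chains, the 12 highest members, the shortest and longest CDS, the 3 highest and 3 lowest departures at 10 and at 60 min, and members called where 5 or fewer. Other members that are named were chosen after their values were seen. Positions are from the GRCm38.p6 annotation, in which all 39 transcripts matched with the same symbol. No sequence is printed.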

Additional observations from a re-analysis of the deposited data

How the results depend on the processing

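No paired analysis was possible because each time point has 1 library. Among alternatives that leave out no library, 62 values kept their direction and side of the threshold or stayed within the set tolerance, and 4 did not. These 4 were 0 members that fell with the deposited factors on plain minutes (31 on log2 minutes), 0 by limma on the TPM table over the treated libraries (2 by edgeR), and rho with CDS length over all members with a mean of at least 10 counts, 0.318 at 30 min and 0.252 at 60 min (0.428 and 0.450 over the deeper members). The cause was not tested. Many of the 62 were counts of called members that were 0 under both settings, so they say little about robustness. With the deposited factors, for example, 0 of the 9444 genes tested rose in the main fit. DESeq2 called 3 over the treated libraries, beside 7.23% of genes, with 8 of 30 members and 3180 of 8631 genes left without an adjusted p. With 1 library left out in turn, 0 to 2 members fell with TMM over 5 libraries, beside 0% to 10.1% of genes. With the deposited factors 21 to 32 members fell, beside 47.7% to 96.3% of genes, both lowest without the 0 min library. Over the treated libraries 0 to 8 members fell, beside 0.962% to 18.6% of genes. The 2 with TMM came without the 0 min library, which is the same fit as that over the treated libraries. The number that rose was 0 in each of these fits. Mitochondrial scaling differed from the deposited factors by at most 4.51% and moved no median ratio past the set tolerance, but ended the call of Klc4 (adjusted p = 0.0453 in edgeR, 0.0517 with that scaling and 0.0650 with DESeq2). Depth limits the 15 members under 100 counts and all values at 60 min most.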

Other observations

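The TPM table lists 12 more symbols of these families that the count table does not hold. Kif1bp, which despite its symbol encodes a protein that binds kinesins and not a motor, had 246, 241, 143, 193 and 203 TPM at 0, 5, 10, 30 and 60 min. The other 11, most of them kinesins of dividing cells such as Kif14, Kif15 and Kif20a, were listed at 2 TPM or less in every library.

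Among the 24 members with at least 100 counts at 0 min, 2 parted by over 1.5-fold between the tables, each at 1 time. So did 7 shallower members with at most 5 TPM at 0 min, where TPM is in whole numbers. Scaled to mitochondrially encoded genes, the TPM of Kif3c at 5 min was 0.675 of its 0 min value, where the deposited ratio was 0.431. For Kif1b at 10 min the values were 0.967 and 0.643. At the other treated times the TPM value was 0.895 to 1.07 times the deposited ratio for Kif3c and 0.992 to 1.01 times it for Kif1b.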
